A study of Mus musculus with 4 samples.

Results

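The gene Trp63 encodes p63, and the region around it was examined for binding of the p63 protein to its own gene and for acetylation of the chromatin there. The region was defined by position, as every peak whose midpoint lies in chr16:25550000-26150000 of the mm9 mouse genome, a window of 600 kb. It held 2 of the 4130 p63 peaks and 73 of the 183757 H3K27ac peaks of the study. Trp63 was placed at about 25.684 to 25.892 Mb on the plus strand, as the definition of the region gives it. That interval is approximate and was not read from an mm9 annotation, so exons, introns, UTRs and the start of each transcript could not be assigned.

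The cells were primary salivary epithelial progenitors taken from adult mice, 12 weeks of age, with wild-type p63 and with no treatment named in the labels. There were 4 libraries in 4 groups of 1: chromatin precipitated with the mouse monoclonal anti-p63 antibody 4A4, chromatin precipitated with an antibody to H3K27ac, and an input with no antibody for each. The data were 2 peak lists, each of 1 ChIP library set against 1 input. The titles of the p63 libraries begin with PSECS and those of the H3K27ac libraries with pSG. Whether the 2 lists came from the same culture was not resolved here. There were no replicates, the number of animals behind a library is not given in the labels, and the lists hold no read numbers, so depth is unknown and nothing below measures variation between cultures. No expression was measured, so the labelled cell type could not be checked against marker genes.

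p63 is a transcription factor of the p53 family and a marker of basal and progenitor cells of stratified and glandular epithelia. Its gene has an upstream promoter that gives the TA isoforms, with an N-terminal transactivation domain, and an internal promoter that gives the deltaN isoforms, which lack that domain and are the main forms in basal epithelial cells. The antibody 4A4 recognises both kinds. In mouse keratinocytes p63 is known to act on an enhancer within an intron of its own gene, an autoregulatory loop that helps keep the gene on in epithelium. H3K27ac, an acetyl group on a histone H3 lysine, marks active promoters and enhancers, usually on the nucleosomes beside the sites where factors bind.

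Both p63 peaks of the region lay inside the Trp63 interval, close together and nearer to its end than to its start. The upstream one was at chr16:25835869-25836111, 243 bases wide, with its midpoint 152 kb past the approximate start of the gene, or 73.1% of the way along it. The downstream one was at chr16:25843724-25844112, 389 bases wide, with its midpoint 76.9% of the way along the interval and 48.1 kb before its end. Within the region, no p63 peak was called at or before the approximate start of Trp63, or after the gene.

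The downstream peak was among the widest of the p63 list. Only 34 of the 4130 p63 peaks (0.823%), this one included, were at least 389 bases wide, against a median of 181 bases. At least as wide as the upstream peak were 649 (15.7%). The list gives no height or enrichment, and width also depends on depth and on the caller's threshold, so these widths describe the calls and are not amounts of binding.

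The peaks formed a close pair that stood alone on this stretch of the chromosome. They were 7.61 kb apart, and both therefore had another p63 peak within 10 kb, which held for 14.6% of all p63 peaks. The next p63 peak before the pair, chr16:25385667-25385879, was 450 kb away, and the next one after it, chr16:26434577-26434804, was 590 kb away. The gap between neighbouring p63 peaks had a median of 234 kb across the list, and 33.9% of the 4110 gaps were longer than the one before the pair and 28.0% longer than the one after it. Wide spacing on either side of the pair was thus common in this list, whereas gaps shorter than the one inside the pair made up 6.74% of them.

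H3K27ac peaks lay next to both p63 peaks and covered the centre of neither, and the arrangement differed between them. The upstream p63 peak shared no base with H3K27ac. An H3K27ac peak of 811 bases, chr16:25834935-25835745, ended 123 bases before it, and the next H3K27ac peak on the other side began 6858 bases after it. It was thus bordered by acetylation within 1 kb on 1 side only. Of all p63 peaks, 22.2% shared no base with H3K27ac and had it within 1 kb on 1 side only.

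The downstream p63 peak sat in a short gap between acetylated stretches. The H3K27ac peak before it, chr16:25842970-25843664 (695 bases), ended 59 bases upstream of it. The H3K27ac peak after that, chr16:25843993-25844486 (494 bases), covered its last 120 bases, or 30.8% of the p63 peak. The gap between these H3K27ac peaks was 328 bases, and it held the p63 midpoint. Of all p63 peaks, 14.1% had their midpoint in a gap of under 500 bases between H3K27ac peaks. A further H3K27ac peak of 201 bases, chr16:25844793-25844993, began 680 bases past the p63 peak.

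**Figure D1:**
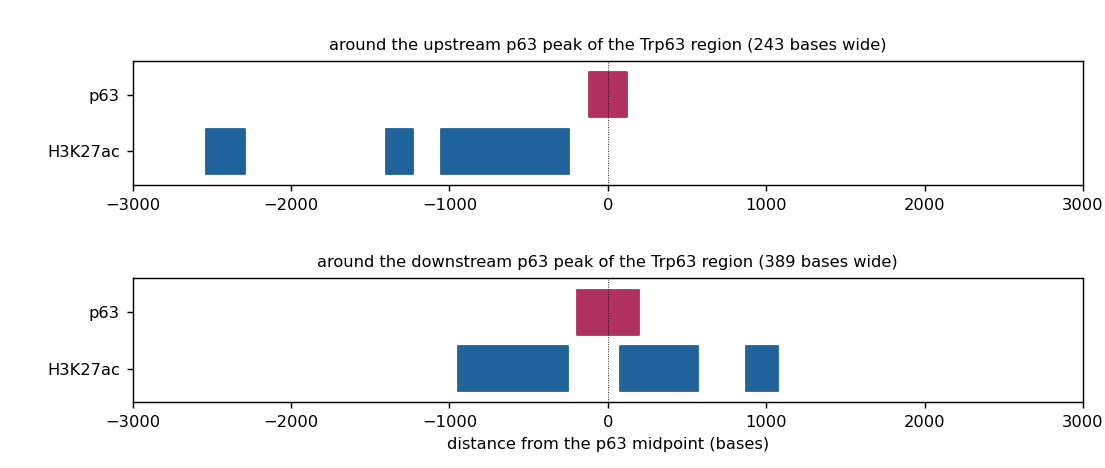
H3K27ac peaks (blue) and p63 peaks (red) within 3 kb of the midpoint of each p63 peak of the Trp63 region; the x axis is distance in bases along the plus strand and boxes are drawn to scale. The upstream p63 peak has H3K27ac on its left side only, 123 bases away, and the downstream one lies across a 328-base gap between H3K27ac peaks of 695 and 494 bases.

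Counted by overlap, 1 of the 2 p63 peaks of the region shared at least 1 base with H3K27ac (50%, exact Clopper-Pearson 95% interval 1.26 to 98.7%), where 34.8% of all p63 peaks did. Both lay within 1 kb of an H3K27ac peak, as did 68.4% of all p63 peaks. With 2 peaks the interval covers nearly every share, so no difference from the rest of the list was detectable. The interval covers counting error only and treats peaks as independent.

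Coverage around the midpoints gave the same picture base by base. Within 50 bases of the midpoint, 0 of 100 bases were covered by H3K27ac at either p63 peak of the region, against a mean of 19.2% over the other 4128 p63 peaks. Between 200 and 400 bases before the midpoint, 78.0% of bases were covered at the upstream peak and 73.5% at the downstream peak, against a mean of 31.0% at the other peaks. Between 200 and 400 bases after it, none were covered at the upstream peak and 100% at the downstream peak, against a mean of 30.7%. Each mean takes in p63 peaks that have no H3K27ac within 1 kb. The spread between peaks was not computed, so these means do not show that either peak was unusual. A centre free of H3K27ac, with any covered base at 200 to 400 bases on either side, was found at 31.1% of all p63 peaks. This broad form, which both p63 peaks of the region met, was thus common in the list. How many p63 peaks had flanks covered as fully as these was not counted.

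H3K27ac peaks were concentrated in the gene itself. Of the 73 H3K27ac peaks, 43 (58.9%) had their midpoint in the Trp63 interval, which makes up 34.7% of the window. In the interval 12009 bases were covered (5.77% of its length), which was 67.8% of all bases covered in the window. In the 134 kb before the gene there were 7 H3K27ac peaks covering 1194 bases, or 0.891%, and in the 258 kb after it 23 peaks covering 4512 bases, or 1.75%. Per 100 kb that is 20.7 peaks in the gene, 5.22 before it and 8.91 after it.

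Within the gene, the acetylated bases lay mostly in the downstream 104 kb, which holds both p63 peaks. That part of the interval had 29 H3K27ac peaks covering 8991 bases, or 8.65% of its length, and the upstream 104 kb had 14 covering 3018 bases, or 2.90%. All 9 H3K27ac peaks of 400 bases or more in the region were in the downstream 104 kb. They made up 12.3% of the region's 73 peaks (exact 95% interval 5.80 to 22.1%), where peaks of this width made up 10.7% of the whole list. The share of wide peaks in the whole list thus lay inside the interval for the region. That interval covers counting error only and treats peaks as independent, although some of these wide peaks were close neighbours. It says nothing about variation between cultures and was not used as a test. The limit of 400 bases was also chosen after the peaks were seen. At the other end, 15 of the region's peaks (20.5%) had the smallest width of the list, 150 bases, as did 21.7% of the whole list. Median width was 185 bases in the region and 191 bases for all other H3K27ac peaks.

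**Figure D2:**
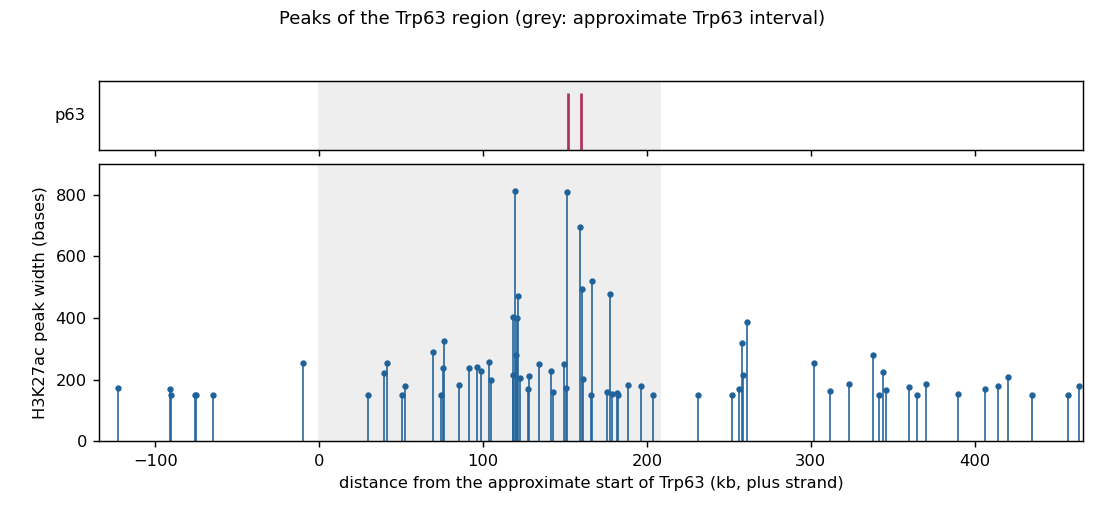
All peaks of the Trp63 region by distance in kb from the approximate start of Trp63, with the gene interval in grey. Red lines are the midpoints of the 2 p63 peaks. Each blue line is 1 of the 73 H3K27ac peaks, with its height giving its width in bases. Every H3K27ac peak of 400 bases or more, a limit chosen after the peaks were seen, stands in the downstream 104 kb of the gene. The next widest, of 386 bases, stands after the gene.

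The upstream end of the gene was thinly acetylated in this list. The last H3K27ac peak before the approximate start, chr16:25674056-25674309 (254 bases), ended 9.69 kb before it. The first one after the start, chr16:25713710-25713859, was 150 bases wide, the smallest width in the list, and lay 29.7 kb inside. This gap of 39.4 kb was the third longest in the region, after those of 55.0 kb and 40.2 kb, at chr16:25619089-25674055 and chr16:25945555-25985765. Since depth is unknown, a stretch without a called peak is not shown to lack acetylation, and the position of the upstream promoter within it was not resolved here.

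The cluster with the most H3K27ac peaks and covered bases stood 118 kb past the approximate start of the gene. There, 7 H3K27ac peaks lay at most 1 kb apart across chr16:25802055-25806467, a cluster of 4413 bases of which 2788 (63.2%) were covered. In order along the plus strand the peaks were 215, 403, 812, 280, 400, 473 and 205 bases wide. The widest of them, chr16:25802841-25803652, was the widest H3K27ac peak of the region. Among the 139149 other clusters and single peaks formed in this way across the genome, 821 (0.590%) held at least 7 peaks and 1158 (0.832%) covered as many bases or more. These shares depended on the joining distance. With 5 kb the cluster was unchanged, and 3.54% of the 92838 others held as many peaks and 2.32% covered as many bases. The smaller cluster around the downstream p63 peak had a higher share of its span covered, 68.7%, and the pair of H3K27ac peaks at chr16:25849629-25850488 one of 77.8%. No p63 peak lay in the 7-peak cluster: its widest peak was 32.2 kb from the nearer of the p63 peaks. The deltaN start lies inside the gene, but its mm9 position was not used here, so whether this cluster covers it was not examined.

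Of the 9 H3K27ac peaks of 400 bases or more in the region, 4 stood within 10 kb of the p63 pair, all outside this cluster. Outside it there was 1 more, chr16:25861149-25861625 (477 bases), 17036 bases away. The rest were in the cluster, 30.4 kb or more from the pair. The 5 widest of the region were those of 812, 811, 695, 519 and 494 bases. Those of 811, 695 and 494 bases were the ones that border or overlap the p63 peaks, and that of 519 bases, chr16:25849970-25850488, lay 5.86 kb past the downstream p63 peak. Within the whole H3K27ac list these widths were wide but not extreme: 5517 of the 183757 peaks were at least 812 bases wide and 13884 (7.56%) at least 494, and the widest reached 11049 bases. In all, 4 of the 73 H3K27ac peaks (5.48%) lay within 1 kb of p63, against 2.92% of the whole list. Within 10 kb the shares were 12.3% in the region and 9.98% in the whole list. Of the 4 within 1 kb, 3 were at least 400 bases wide. The share of peaks this wide among all H3K27ac peaks within 1 kb of p63 was not counted. Wide acetylation beside p63 is therefore not shown to be particular to the region.

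Around the p63 peaks the acetylation formed small clusters as well. Joined at 1 kb, the 3 H3K27ac peaks just before the upstream p63 peak spanned 2295 bases at chr16:25833451-25835745, with 1232 bases covered, and the 3 peaks around the downstream one spanned 2024 bases at chr16:25842970-25844993, with 1390 bases covered. The cluster around the downstream p63 peak was the only one of the region that held a p63 midpoint. Of the 52 clusters and single peaks of the region, 13 held 2 or more peaks, where 17.7% did across the genome.

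Joined over longer distances, as is done to outline enhancer domains, the downstream part of Trp63 became 1 domain. With H3K27ac peaks at most 10 kb apart joined, chr16:25802055-25887539 formed a domain of 85.5 kb with 28 peaks, 8708 covered bases (10.2% of its span) and both p63 peaks. It began at the 7-peak cluster and ended 4.46 kb before the approximate end of the gene, and it held 49.2% of the covered bases of the region. Of the 62920 other domains and single peaks in the genome, 186 (0.296%) spanned as much or more and 515 (0.818%) had as many covered bases. Among the 5617 other domains of 20 kb or more, 5.52% held at least 2 p63 midpoints and 22.6% at least 1. Those domains were mostly shorter, with a median span of 30145 bases and a median of 7.84% of it covered. The shares are not matched for length, and a longer domain has more room for p63 peaks.

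There were 2 more domains of 20 kb or more in the region, both within the gene and without a p63 peak. One spanned 35.2 kb at chr16:25753585-25788753 with 10 H3K27ac peaks, none wider than 325 bases, and the other 23.0 kb at chr16:25713710-25736749 with 5 peaks, none wider than 253 bases. So 3 of the 17 domains and single peaks of the region reached 20 kb, where 8.93% did across the genome. The span of the largest domain rested on the joining distance. With 5 kb the 85.5 kb domain came apart, and the longest domain of the region was then one of 9.94 kb after the gene, at chr16:25935619-25945554, which 4.19% of the other domains and single peaks matched in span. With 25 kb all 43 H3K27ac peaks of the gene joined into 174 kb, which 4.68% of the others matched in span and 2.96% in covered bases. The rank at 10 kb, 0.296% in span, is thus the highest of these 3 settings.

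The same contrast appeared in bins of 50 kb. The highest of the 12 bins, chr16:25800001-25850000, held both p63 peaks and 19 H3K27ac peaks covering 6612 bases. Of the 52733 bins outside the region, 717 (1.36%) had as much or more. The bin before it covered 2347 bases (9.65% of other bins had as much) and the bin after it 2096 (11.4%). Of the 12 bins of the region, 2 exceeded the 90th percentile of the other bins, 2289 bases, which 10% of other bins do. The lowest bin of the region, chr16:25650001-25700000, which contains the approximate start of the gene, covered 254 bases and was the only one below the median of other bins, 406 bases.

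**Figure D3:**
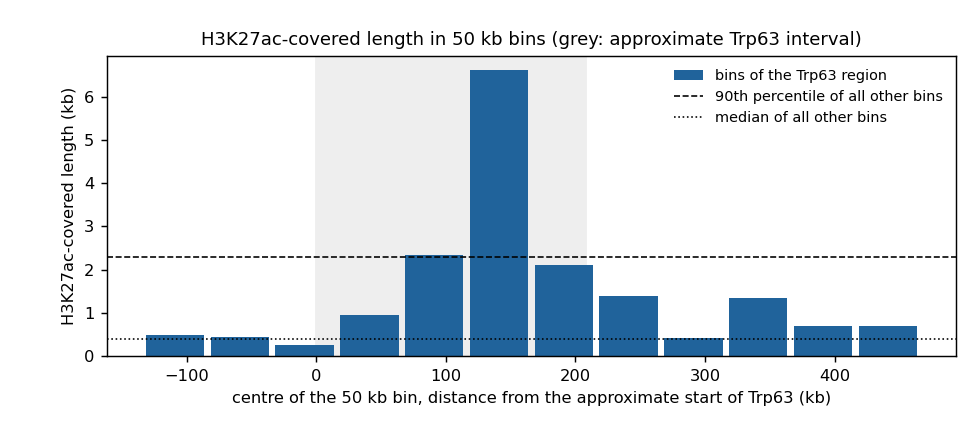
H3K27ac-covered length in kb for the 12 bins of 50 kb in the Trp63 region, placed by the distance of the bin centre from the approximate start of Trp63 (gene interval in grey). The dashed and dotted lines are the 90th percentile and the median of the 52733 other bins; the bin with both p63 peaks reaches 6.61 kb.

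Joined at 10 kb or at 25 kb, the domain of acetylation ended 4.46 kb before the approximate end of the gene. The last H3K27ac peak inside the interval, chr16:25887390-25887539, was followed by a gap of 27.4 kb. Of the 23 H3K27ac peaks after the gene, the widest was 386 bases, at chr16:25945169-25945554, and it was 101 kb from the nearest p63 peak. In the GRCm38 gene table, used for gene order only, the protein-coding neighbours of Trp63 are Tprg before it and P3h2, a prolyl hydroxylase of collagen, after it. P3h2 is followed by Cldn1, a claudin of tight junctions. No peak was assigned to any of these genes.

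Set against whole windows of the same size, the Trp63 region stood above the median of the genome in p63 peaks and in H3K27ac, and far from its highest windows. It held 2 p63 peaks, and of the 4386 other windows of 600 kb 1032 (23.5%) held 2 or more, 2382 held none and the highest number was 11. It held 73 H3K27ac peaks, against a median of 34 in the other windows, 17.7% of which had as many or more. It had 17715 bases covered by H3K27ac, or 2.95% of its length, against a median of 7324 bases (quartiles 2705 and 15332), and 20.1% of the other windows had as much or more, up to 84869 bases. These shares depended on window size: centred on the same point, windows of 300 kb gave 10.7% for p63 peaks and 9.21% for covered bases, and windows of 1200 kb gave 12.0% and 22.8%. The windows with the most p63 peaks were chr9:3000001-3600000 and chr11:3000001-3600000, with 11 each, and chr3:101400001-102000000, with 10. In that order they held 9, 121 and 116 H3K27ac peaks, covering 1490, 46644 and 33104 bases. Filtering of regions was not stated, so how reliable the p63 calls in these windows are is unknown.

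Among windows with the same number of p63 peaks the acetylation of the Trp63 region was near the middle. The 480 other windows with 2 p63 peaks had a median of 60 H3K27ac peaks and 15172 covered bases (quartiles 9805 and 23871), and 198 of them (41.2%) had at least as many covered bases as the Trp63 region. There were 2.74 p63 peaks per 100 H3K27ac peaks in the region and 2.25 among all other peaks of both lists. On the same chromosome, the window before the region held 3 p63 peaks, 54 H3K27ac peaks and 12348 covered bases, and the window after it 1 p63 peak, 49 H3K27ac peaks and 14610 covered bases. The Trp63 region was thus above both neighbours in H3K27ac peaks and covered bases and between them in p63 peaks. Its lowest shares of equal or higher places elsewhere came from places picked within it. These were the 50 kb bin with both p63 peaks, the 7-peak cluster joined at 1 kb and, with 10 kb joining only, the long domain. Each was the highest of its kind in the region, out of 12 bins, 52 clusters and 17 domains, single peaks included. Each was ranked against all such places elsewhere, not against the highest one of each window. These shares therefore do not compare the region with other windows.

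**Figure D4:**
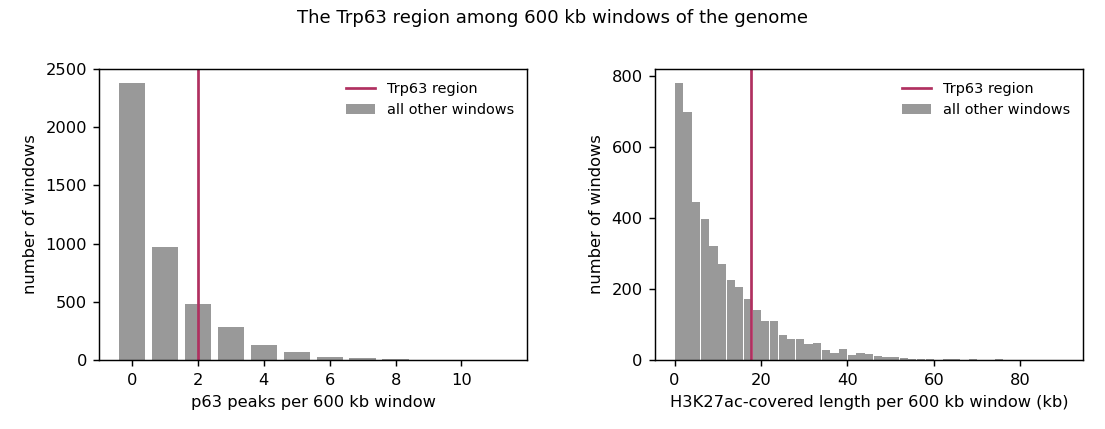
Number of 600 kb windows of the genome by p63 peaks per window (left) and by H3K27ac-covered length in kb per window (right), with the Trp63 region as a red line and the 4386 other windows as grey bars. The region lies at 2 p63 peaks and 17.7 kb, and 23.5% and 20.1% of the other windows have as much or more.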

How the data were processed

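The submitters' processing notes name Bowtie 1.1.1 (read alignment), MACS2 2.1.0 (peak calling) and the mouse build mm9. Settings, the peak threshold and any filtering of reads or regions were not stated there or in the labels. Each deposited list has 3 columns, chromosome, start and end, with no score, summit, fold or p-value. Each list was called on 1 ChIP library against 1 input, per the labels.

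Starts are printed counted from 1. Peaks belonged to the region by midpoint. Overlap needed 1 shared base, covered bases were clipped at the edges, and joining took peaks at most 1 kb or 10 kb apart. The comparison windows were whole windows of 600 kb or bins of 50 kb up to the last peak of each chromosome, on a grid that keeps the region as 1 window. Windows without any peak were kept: 192 had no H3K27ac peak. Ranks among windows, bins and domains are descriptions, and no test was run, since each group holds 1 library. The region and all comparisons were chosen with earlier results of these data known, and the bins, upstream and downstream parts of the gene, width limit of 400 bases, 1 kb clusters and coverage at p63 midpoints were chosen after the peaks were seen. The text names every p63 peak of the region with its nearest H3K27ac peak, the 5 widest H3K27ac peaks, every domain of 20 kb or more and the 3 other windows with the most p63 peaks; other peaks were named after their positions were seen. No mm9 genome was used here, so no sequence or motif was read. Counts of p63 peaks in the region, covered bases, shared bases and 1 kb clusters were tested on simulated peaks at known positions. They were exact in 20 of 20 runs. No simulated peak crossed an edge of the region, and simulated peaks that overlapped began at the same base. The other measures were not checked in this way. Tables were computed with pandas 2.3.3 and numpy 2.4.6 under Python 3.11.15, intervals with scipy 1.17.1 and figures with matplotlib 3.10.9.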

Additional observations from a re-analysis of the deposited data

How the results depend on the processing

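Of 32 alternatives, 5 of them chosen after seeing the data, 19 left their value within the limits used here. These were 1.5 times for counts, bases and spans (for windows, in count and in share). For the share of p63 peaks at H3K27ac the limit was the exact 95% interval, with peaks as units. For the share of covered bases inside the gene it was 55.1 to 77.7%. That range came from applying the share of bases, 67.8%, to the 73 H3K27ac peaks, of which 43 (58.9%) were in the gene. It is a working limit and not an exact interval for bases or for peaks. The 2 p63 peaks were counted under each alternative run for them. The share of p63 peaks at H3K27ac depended on the definition: it was 0% when the p63 midpoint had to lie in an H3K27ac peak, 0% when at least 50% of the p63 peak had to be covered, and 100% within 1000 bases. The number of windows with as many p63 peaks was 937 of 8780 (10.7%) with windows of 300 kb, 263 of 2189 (12.0%) with windows of 1200 kb and 39 of 162 (24.1%) on the same chromosome, against 1032 of 4386 (23.5%). For covered bases these were 809 (9.21%), 499 (22.8%) and 29 (17.9%), against 883 (20.1%). On the same chromosome, and for covered bases with 1200 kb, the count is lower because fewer windows are compared, and the share stayed within 1.5 times. With 1200 kb the window also takes in the p63 peaks on either side of the pair. With only the H3K27ac peaks of the median width of the list or wider the region had 11554 covered bases, since fewer peaks are counted, and 81.5% of them lay inside the gene. The longest domain spanned 9936 bases with a joining distance of 5000 bases and 173830 with 25000. No paired analysis was possible because there was a single library per group. Depth is unknown, so its effect on these counts was not tested.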

Other observations

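The H3K27ac list is not in genome order and holds no value that explains its order. Of the 73 H3K27ac peaks of the Trp63 region, the 3 that stood earliest in the list were those that overlap or border the p63 peaks: chr16:25843993-25844486 at row 5819 of 183757, chr16:25834935-25835745 at row 7802 and chr16:25842970-25843664 at row 12055. The next ones, at rows 13641 and 15187, were the peaks of 473 and 812 bases in the 7-peak cluster. In all, 8 of the 73 peaks stood in the first 18375 rows, which are 10% of the list, and the region's median row was 83174. Many of the others follow each other directly in the list: 48 of the neighbouring pairs are in consecutive rows. What the order reflects was not tested, and the row numbers are given only as positions in the list.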
